A study of Mus musculus with 7 samples.

Results

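The autophagy genes of mouse Paneth cells were followed across 2 diets. Paneth cells sit at the bottom of small-intestinal crypts and secrete antimicrobial proteins. The set was a list of 40 autophagy genes, read from 1 microarray per sample, and each gene was read from its transcript cluster (a group of probes summarised per gene) that was brightest across the 7 arrays. A cluster naming a single gene was found for 39 of the 40, out of 19938 such genes on the array, and the cargo receptor gene Optn was not analysed here. Lrrk2 lay below the filter on low values (a mean log2 value of 6.79), so 38 of the set entered the test beside 13409 genes in all. The calorie-restricted group (4 arrays) came from mice given 60% of the ad libitum calories, and the ad libitum group (3 arrays) from mice fed freely, for 4 to 7 weeks. All mice were aged 4 months, and the labels name no genotype, strain or agent. Paneth cells were isolated by flow cytometry, and the labels call the samples biological replicates. Values are on the log2 expression scale, and where the arrays of a group are listed they follow the replicate numbers. Group values are mean ± SD (n = 4 under calorie restriction, n = 3 ad libitum). Each difference subtracts the ad libitum mean from the calorie-restricted mean and is given ± SE.

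In autophagy a double membrane grows around part of the cytoplasm, closes into an autophagosome and delivers its contents to the lysosome. A kinase complex starts the process, a lipid kinase complex marks the site, lipid transfer proteins enlarge the membrane, and an enzyme cascade couples small ubiquitin-like proteins of the LC3 and GABARAP families to it, where cargo receptors bind. Nutrient shortage is a classical inducer, acting largely through the kinases and through protein modification, so transcript levels do not measure autophagic flux. In Paneth cells the pathway is known for granule biology: mice with reduced Atg16l1 have disturbed granules, ATG16L1 is a Crohn's disease risk gene, and lysozyme can be secreted through LC3-coated vesicles during infection.

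No autophagy gene passed the test between the diets. Of 38 tested, 0 were higher and 0 were lower at an adjusted p below 0.05 (limma), and 2, Atg4c and Atg2a, had an unadjusted p below 0.05. Over all 13409 genes, 0.664% were called (0.656% higher and 0.00746% lower) and 9.3% had an unadjusted p below 0.05, against 5.26% of the autophagy genes. With so few calls over all genes, a count of 0 among 38 says little by itself. The median difference was 0.04 log2 units, beside 0.01 over all genes tested, and single differences ran from -0.14 to 0.33. The bounds were narrow in this fit. The 95% interval lay wholly within a 1.5-fold change in either direction for 37 of the 38, the exception being Bnip3, and for 82.9% of all genes tested. For the set that count was 31 after median centring of the arrays and 32 with an ordinary linear model. It was 0 with the enterocyte covariate described below. With limma's array weights 1 gene, Atg4c, was called higher (0.28 ± 0.08, adjusted p = 0.0482), in a fit that called 10.1% of all genes. In that fit 39.5% of the set had an unadjusted p below 0.05, against 30.2% of all genes tested.

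The promoters of 4 genes show what the start regions of the set look like. Atg2a and Atg4c are shown since their groups did not overlap, Sqstm1 as the best-known cargo receptor, and Atg3 because it holds the motif discussed here and was among the genes that varied most between arrays of the same diet. Each sequence is 300 bases from RefSeq (build GRCm38.p6), from 250 bases before to 50 after the annotated start, with every CACGTG in capitals. Atg4c has another overlapping start in that table, and Atg16l1 has no entry. The RefSeq span of the Atg4c gene begins upstream of the printed window, at position 99189159.
Atg2a, chr19:6241418-6241717, plus strand: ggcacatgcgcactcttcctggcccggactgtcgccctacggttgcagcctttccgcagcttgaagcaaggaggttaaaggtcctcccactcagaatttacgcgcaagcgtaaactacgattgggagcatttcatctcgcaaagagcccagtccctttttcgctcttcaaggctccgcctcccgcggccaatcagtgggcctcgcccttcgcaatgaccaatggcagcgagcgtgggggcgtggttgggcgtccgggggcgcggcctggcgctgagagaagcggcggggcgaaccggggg
Atg4c, chr4:99193684-99193983, plus strand: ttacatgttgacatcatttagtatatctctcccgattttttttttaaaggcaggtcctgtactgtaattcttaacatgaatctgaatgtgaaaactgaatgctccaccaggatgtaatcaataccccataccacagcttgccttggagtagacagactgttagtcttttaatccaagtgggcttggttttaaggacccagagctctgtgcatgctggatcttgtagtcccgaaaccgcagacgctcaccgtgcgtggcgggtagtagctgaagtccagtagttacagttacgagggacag
Sqstm1, chr11:50210771-50211070, minus strand: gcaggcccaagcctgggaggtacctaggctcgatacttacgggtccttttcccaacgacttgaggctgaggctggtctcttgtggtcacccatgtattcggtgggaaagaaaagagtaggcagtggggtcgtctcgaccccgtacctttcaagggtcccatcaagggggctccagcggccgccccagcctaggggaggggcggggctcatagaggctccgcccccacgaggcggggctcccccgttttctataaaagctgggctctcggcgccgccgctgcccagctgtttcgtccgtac
Atg3, chr16:45158579-45158878, plus strand: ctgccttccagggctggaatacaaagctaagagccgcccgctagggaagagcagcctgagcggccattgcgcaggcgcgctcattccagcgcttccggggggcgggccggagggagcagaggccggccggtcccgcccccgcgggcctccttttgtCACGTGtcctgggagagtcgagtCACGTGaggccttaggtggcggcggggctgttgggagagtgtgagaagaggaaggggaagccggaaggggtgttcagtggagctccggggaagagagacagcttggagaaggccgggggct
CACGTG is the core of the site bound by TFEB, a transcription factor known to drive lysosomal and autophagy genes, and reads the same on both strands. A promoter entry was found for 32 of the 40 genes. CACGTG stood in 5 of the 32 (15.6%), namely Atg3, Atg5, Atg7, Atg14 and Bnip3, against 8.09% of all 27025 genes with an entry. The longer TCACGTGA, which contains it, stood in 1 of the 32, Atg3, and in 1.12% of all genes. The FOXO-type word TGTTTAC, searched on both strands, was in 0 of the 32 and in 4.05% of all genes. The median share of G and C bases was 60.3% over the promoters of the set and 52.7% over all promoters. CACGTG is rich in these bases and TGTTTAC poor, and the part of base content in the shares was not tested. These counts describe letters in short windows and were put to no test. Of the 5 genes with CACGTG, differences between the diets ranged from -0.12 for Atg7 to 0.33 for Bnip3, and 0 passed the test.

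The arrays fell into 2 sets that cut across the diets, which touches every comparison here. By correlation over all clusters, calorie-restricted replicates 1 to 3 grouped with ad libitum replicate 1, and calorie-restricted replicate 4 with ad libitum replicates 2 and 3. Correlations were 0.987 to 0.995 within a set and 0.974 to 0.988 between sets. The labels give no batch that matches these sets. A list of 5 stem and cycling markers had a mean log2 value of 10.42 to 11.15 in the first set and 11.28 to 11.37 in the second, and 7 enteroendocrine markers 10.92 to 11.55 against 10.59 to 10.62, and the part of these cells in the autophagy values was not tested. Paneth markers were bright in both diets, with the lysozyme gene Lyz1 at 14.31 ± 0.04 under calorie restriction and 14.31 ± 0.02 ad libitum, and the matrix protease gene Mmp7 at 13.91 ± 0.15 and 13.96 ± 0.06. Of 14 Paneth markers 0 were called, a count that says little where 0.664% of all genes tested were called. Enterocyte markers moved with the diet: 12 of 26 were called higher, against 0.656% of all genes tested. Their list means were 11.59 to 11.82 under calorie restriction and 10.18 to 10.84 ad libitum. In bulk samples, more cells of a type and more RNA per cell cannot be told apart. With the enterocyte mean as a covariate, 0 autophagy genes were called, in a fit that called 0 of all 13409 genes. Of the 38 intervals, 0 then lay within 1.5-fold. The enterocyte means did not overlap between the diets, so that fit can hardly separate them from the diet.

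Atg16l1, the scaffold that places the conjugation machinery on the membrane, showed no detectable diet difference. It read 9.21, 9.28, 9.36 and 9.40 under calorie restriction and 9.37, 9.45 and 9.45 ad libitum. The groups overlapped, since calorie-restricted replicate 4 lay above ad libitum replicate 1. Its difference was -0.11 ± 0.08 (adjusted p = 0.797), or 0.926-fold with a 95% interval of 0.809 to 1.06. Permuting the diets over all 35 splits gave an exact two-sided p of 0.114, where 0.0286 is the smallest possible. Within the array sets, the gap between diets was -0.09 in the first and -0.05 in the second. Leaving out each array in turn kept the difference between -0.14 and -0.08, and it was -0.02 after median centring. Changes beyond 1.5-fold in this gene lie outside the interval.

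Sqstm1 encodes p62, the receptor that ties ubiquitin-marked cargo to LC3 and is itself degraded by autophagy. It read 12.23, 12.17, 12.32 and 11.82 under calorie restriction and 12.33, 12.16 and 11.98 ad libitum. The diets overlapped, with the lowest array in the calorie-restricted group. The difference was -0.03 ± 0.13 (adjusted p = 0.972), or 0.982-fold with a 95% interval of 0.795 to 1.21. The exact two-sided p over the same permutations was 0.914. Its direction was not settled, since it was 0.06 after median centring of the arrays. With the array set as a block, an alternative added after seeing the data, it was -0.17 ± 0.07 (adjusted p = 0.224).

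**Figure D1:**
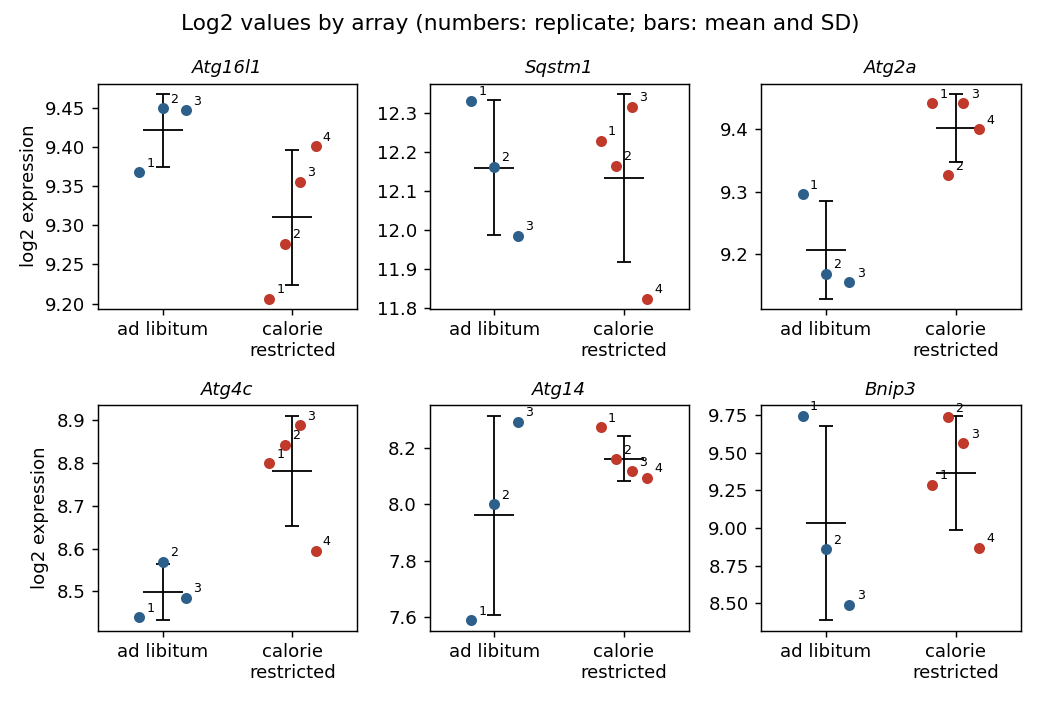
Log2 expression (vertical axis, a separate scale in each panel) of 6 autophagy genes in the 3 ad libitum and 4 calorie-restricted arrays, with points numbered by replicate and bars for mean and SD. The diets do not overlap for Atg2a and Atg4c and overlap for Atg16l1, Sqstm1, Atg14 and Bnip3, and calorie-restricted replicate 4 is the lowest of its group for Sqstm1, Atg4c, Atg14 and Bnip3.

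The initiation complex consists of the kinase Ulk2, a relative of Ulk1, and its partners Atg13, Rb1cc1 (the FIP200 scaffold) and Atg101. Of these 4 genes 0 were called, and their median difference was 0.15. Ulk2 read 8.80, 8.92, 8.92 and 8.61 under calorie restriction and 8.70, 8.74 and 8.42 ad libitum, a difference of 0.20 ± 0.12 (adjusted p = 0.716). Calorie-restricted replicate 4 lay inside the ad libitum range, so the groups overlapped. Without ad libitum replicate 3 the difference was 0.097. Atg13 read 11.50, 11.41, 11.60 and 10.99 under calorie restriction and 11.40, 11.18 and 11.07 ad libitum (0.16 ± 0.15, adjusted p = 0.835). Leaving out each array in turn gave 0.09 to 0.29, the highest without calorie-restricted replicate 4. Its lowest values were in the second array set, and with that set as a block the difference was -0.01 ± 0.08. Rb1cc1 differed by -0.03 ± 0.09. Atg101 differed by 0.14 ± 0.15, and its ad libitum arrays alone spanned 8.70 to 9.32.

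The lipid kinase complex makes phosphatidylinositol 3-phosphate on the growing membrane. Pik3c3 is its catalytic subunit, Pik3r4 its regulatory kinase-like subunit and Becn1 a further subunit. Atg14 directs the complex to autophagy, Uvrag forms an alternative complex on endosomes, and Ambra1 binds Becn1. None of the 6 was called by limma, 0 had an unadjusted p below 0.05, and their median difference was -0.02. Becn1 was among the steadiest of the set, at 10.27, 10.22, 10.29 and 10.21 under calorie restriction and 10.27, 10.30 and 10.38 ad libitum (-0.07 ± 0.07, adjusted p = 0.849). Atg14 read 8.27, 8.16, 8.12 and 8.09 under calorie restriction and 7.59, 8.0 and 8.29 ad libitum (0.20 ± 0.16, adjusted p = 0.805). The ad libitum arrays of Atg14 spread over 0.70 log2 units, and without a single array the difference ran from 0.01 to 0.37. Pik3c3, Pik3r4, Uvrag and Ambra1 had differences of -0.01, -0.004, -0.08 and -0.03. Pik3r4 moved by 0.13 and Ambra1 by 0.17 from the lowest to the highest of the 7 arrays.

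Membrane supply and lipid binding were covered by 7 genes. Atg2a and Atg2b encode lipid transfer proteins, Atg9a and Atg9b membrane proteins that scramble lipids, Wipi1 and Wipi2 readers of phosphatidylinositol 3-phosphate, and Vmp1 an endoplasmic reticulum protein needed for autophagosome formation. Atg2a read 9.44, 9.33, 9.44 and 9.40 under calorie restriction and 9.30, 9.17 and 9.16 ad libitum. Every calorie-restricted array lay above every ad libitum array, as for 7.14% of all genes tested in that direction. The difference of 0.20 ± 0.08, or 1.15-fold with a 95% interval of 1.004 to 1.31, did not pass (adjusted p = 0.524, and 0.0802 to 0.969 over the alternatives). Its paralog Atg2b differed by 0.06 ± 0.08 and overlapped. A second cluster of Atg2b gave -0.06.

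The remaining membrane genes showed little by diet and more by array. Atg9b read 7.14, 6.99, 7.24 and 7.27 under calorie restriction and 7.33, 7.35 and 7.23 ad libitum (-0.14 ± 0.09, adjusted p = 0.719), values not far above the filter level. Its paralog Atg9a differed by 0.08 ± 0.12. Wipi1 had -0.10 ± 0.16 and Wipi2 0.03 ± 0.10. With the array set as a block, Wipi1 was at -0.28 ± 0.09 (adjusted p = 0.111), the smallest p in the set in that fit. Vmp1 differed by 0.05 ± 0.18, one of the wider errors of the set, and by -0.17 ± 0.07 with the block (adjusted p = 0.197).

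The conjugation enzymes attach LC3 and GABARAP proteins to lipid. Atg7 is the activating enzyme, Atg3 and Atg10 are the transferring enzymes, and Atg12 joined to Atg5 works with Atg16l1 at the membrane. Of the 7 genes, which include the Atg16l1 paralog Atg16l2, 0 were called, and the median difference was 0.01. Atg7 read 9.89, 9.76, 9.86 and 9.70 under calorie restriction and 9.95, 10.02 and 9.80 ad libitum (-0.12 ± 0.09, adjusted p = 0.790). The diets overlapped, though the highest values were ad libitum. Atg3 differed by 0.11 ± 0.17, Atg5 by 0.01 ± 0.14, Atg10 by 0.08 ± 0.12 and Atg12 by 0.09 ± 0.10. Atg16l2 differed by -0.08 ± 0.13.

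**Figure D2:**
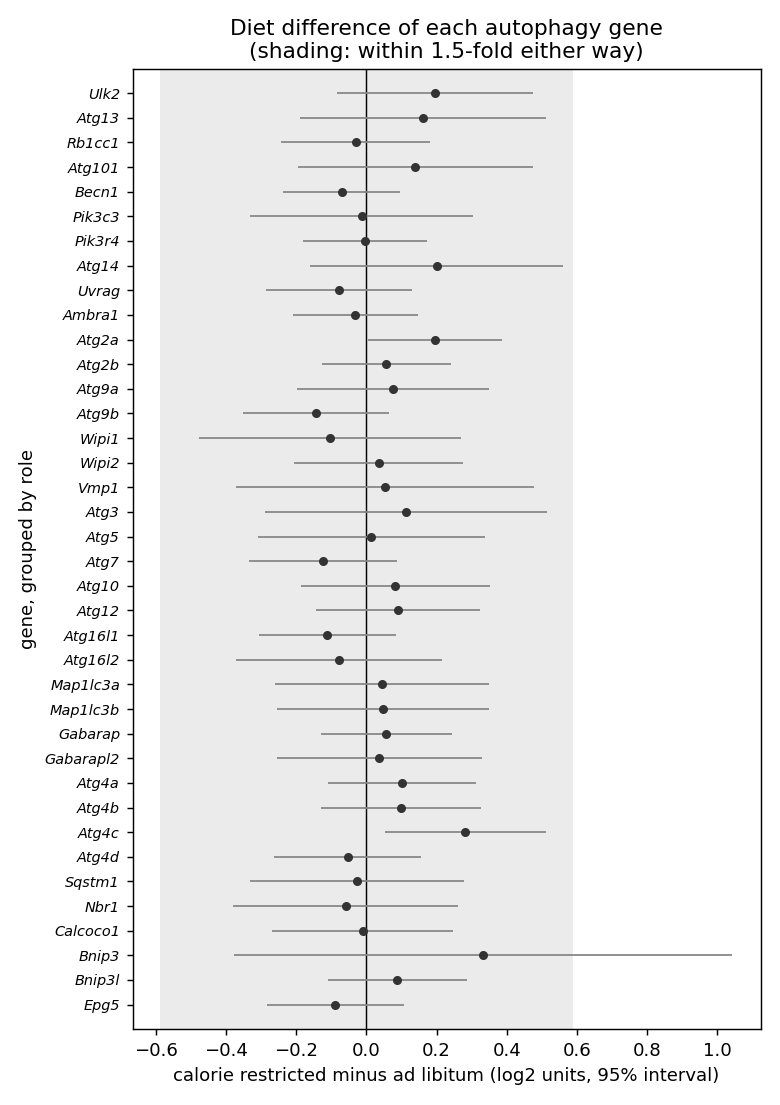
Calorie restricted minus ad libitum difference (log2 units, horizontal axis) of the 38 tested autophagy genes with 95% intervals from the moderated fit, grouped by role from top to bottom, and shading for a change within 1.5-fold. The intervals of 37 genes lie inside the shading, that of Bnip3 extends past it, and those of Atg2a and Atg4c leave out 0 before adjustment for multiple testing.

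The ubiquitin-like proteins and the Atg4 proteases that trim and recycle them made up 8 genes. Atg4c read 8.80, 8.84, 8.89 and 8.60 under calorie restriction and 8.44, 8.57 and 8.49 ad libitum. The groups did not overlap, but calorie-restricted replicate 4 lay only just above ad libitum replicate 2. The difference of 0.28 ± 0.10, or 1.22-fold with a 95% interval of 1.04 to 1.43, had the smallest p of the set and did not pass (adjusted p = 0.400, and 0.0482 to 0.897 over the alternatives). It was 0.40 within the first array set and 0.07 within the second, and 0.25 to 0.34 with single arrays left out. Groups that do not overlap, all with calorie restriction on top, were seen for 5.26% of the set, against 10.2% of all genes tested (7.14% higher and 3.03% lower).

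The other proteases had smaller differences. Atg4a read 9.23, 9.48, 9.42 and 9.34 under calorie restriction and 9.32, 9.28 and 9.19 ad libitum (0.10 ± 0.09, adjusted p = 0.827), and its second cluster differed by 0.08. Atg4b had 0.10 ± 0.10 and Atg4d -0.05 ± 0.09. The ubiquitin-like genes themselves were level between the diets. Map1lc3a, Map1lc3b (the common LC3 marker of autophagosomes), Gabarap and Gabarapl2 differed by 0.04 ± 0.13, 0.05 ± 0.13, 0.06 ± 0.08 and 0.04 ± 0.13. For Map1lc3b the fold was 1.03 with a 95% interval of 0.839 to 1.27. A second Map1lc3b cluster gave 0.04, and a dim second Gabarapl2 cluster, below the filter, gave 0.26. The kept and the second clusters of Atg4a, Bnip3, Bnip3l and Map1lc3b share RefSeq accessions in the platform table, and those of Gabarapl2 share a cDNA accession. The second Gabarapl2 cluster read 5.97 to 6.82 over the 7 arrays, and the kept one 11.87 to 12.33. The positions of the clusters were not used here, so the values printed for these 5 genes are uncertain where a cluster reads a near-identical copy.

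Cargo receptors link targets to LC3. Nbr1 is a relative of p62, Calcoco1 serves turnover of the endoplasmic reticulum and Golgi, and Bnip3 and Bnip3l mark mitochondria and respond to low oxygen. Bnip3 varied more than any other gene of the set, at 9.29, 9.74, 9.56 and 8.87 under calorie restriction and 9.75, 8.86 and 8.49 ad libitum. Highs and lows occurred in both diets. The difference of 0.33 ± 0.31, or 1.26-fold with a 95% interval of 0.769 to 2.06, is the least precise here (adjusted p = 0.833). Without ad libitum replicate 1 it was 0.69, and without ad libitum replicate 3 it was 0.06. With the array set as a block it was -0.02 ± 0.16, and a second Bnip3 cluster differed by 0.25. Bnip3l read 12.62, 12.70, 12.68 and 12.49 against 12.66, 12.54 and 12.40 (0.09 ± 0.09, adjusted p = 0.842). Nbr1 differed by -0.06 ± 0.14, and by -0.20 ± 0.08 with the block (adjusted p = 0.193). Calcoco1 differed by -0.01 ± 0.11, and by -0.09 ± 0.10 with the block.

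Epg5 helps tether autophagosomes to lysosomes, and Lrrk2, a kinase linked in people to Parkinson's and Crohn's disease, has been tied to lysozyme sorting in mouse Paneth cells. Epg5 read 8.77, 8.61, 8.74 and 8.75 under calorie restriction and 8.83, 8.84 and 8.75 ad libitum (-0.09 ± 0.09, adjusted p = 0.839). The diets overlapped, since calorie-restricted replicate 1 lay above ad libitum replicate 3. Lrrk2 lay between 5.60 and 5.96 on all 7 arrays, below the filter level, so its signal was not shown to exceed background, and its second cluster lay below that level too.

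Arrays of the same diet differed among themselves in much of the set. Calorie-restricted replicate 4 lay below replicates 1 to 3 while ad libitum replicate 1 lay above replicates 2 and 3 for 19 of the 38 genes (50%), and the opposite held for 3 (7.89%). Over all genes tested the shares were 28.0% and 21.8%, and over the 14 Paneth markers 71.4% and 7.14%. The largest such gaps, described after their values were seen, were in Bnip3, Vmp1 and Atg3. In Bnip3, calorie-restricted replicate 4 was 0.66 below the mean of its other replicates, and ad libitum replicate 1 was 1.07 above the mean of the other two. In Vmp1 the gaps were -0.59 and 0.47, and in Atg3 -0.53 and 0.48. Members with the opposite tilt included Pik3c3, with gaps of 0.22 and -0.42, and Atg16l1, with 0.12 and -0.08. What separates the array sets was not tested.

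**Figure D3:**
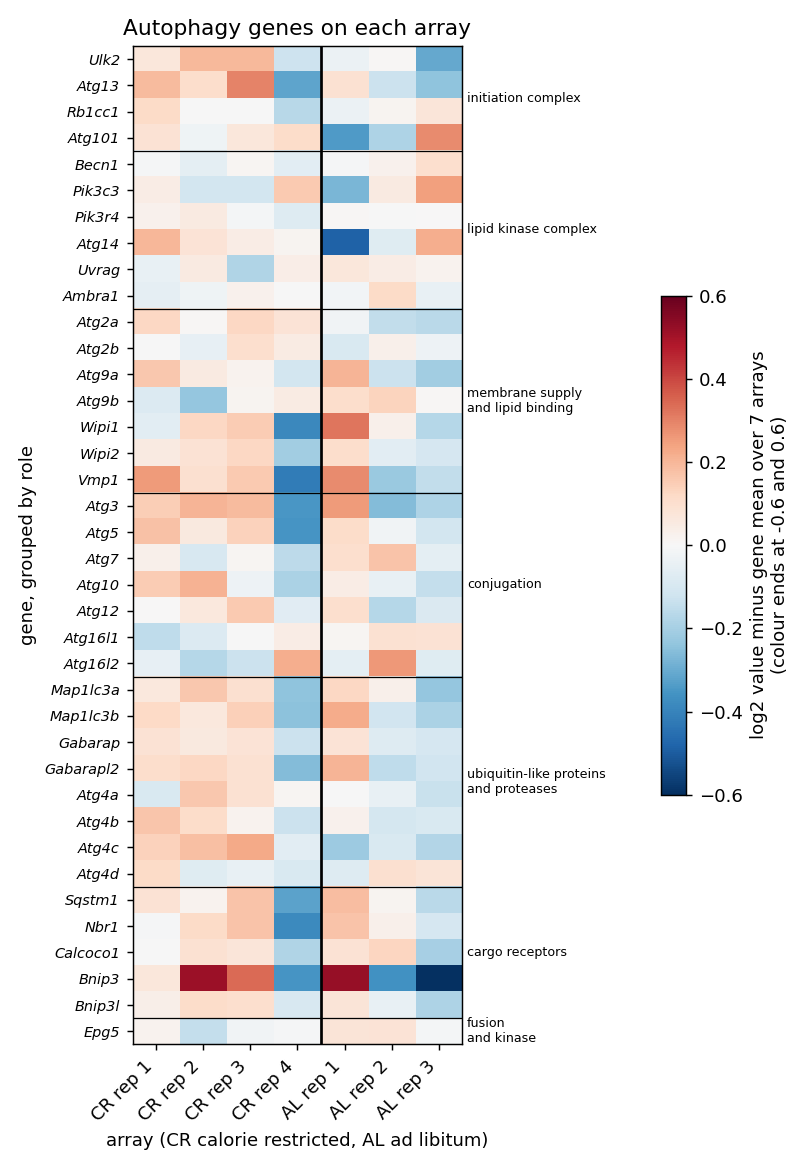
Log2 value minus the gene's mean over the 7 arrays (colour) for the 38 tested autophagy genes (rows, grouped by role) on each array (columns, with a line between diets). Calorie-restricted replicate 4 is lower than the rest of its diet for many genes, among them Vmp1, Atg3, Atg5, Sqstm1 and Nbr1, while the columns do not separate by diet.

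**Figure D4:**
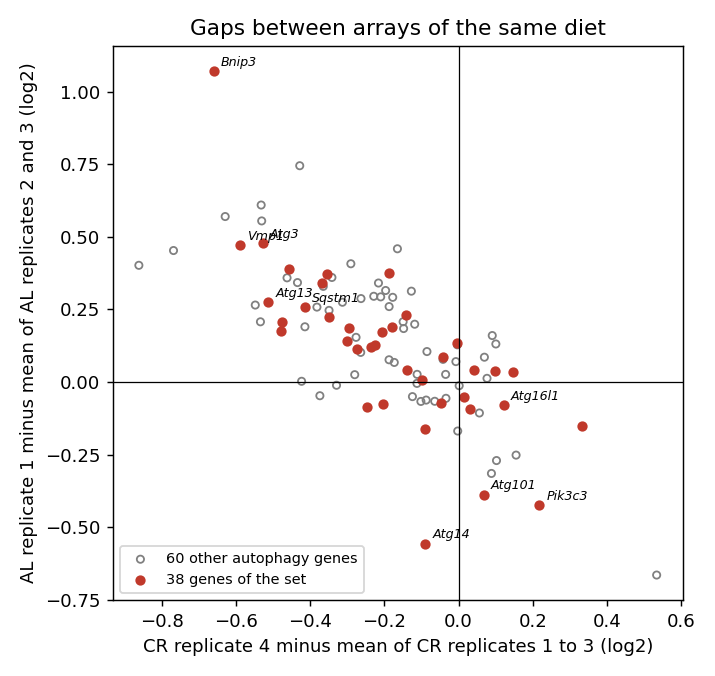
Gap of ad libitum replicate 1 above the mean of replicates 2 and 3 (vertical axis, log2) against the gap of calorie-restricted replicate 4 from the mean of replicates 1 to 3 (horizontal axis, log2), for the 38 autophagy genes and 60 other autophagy genes. Most points lie at the upper left, with Bnip3 at -0.66 and 1.07, and Pik3c3 and Atg101 lie at the lower right.

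With the array set as a block, added after seeing the data, 0 of the 38 autophagy genes were called, in a fit that called 3.85% of all genes. Unadjusted p values below 0.05 numbered 5 there, or 13.2% of the set against 21.2% of all genes tested. Of those 5, Wipi1, Vmp1, Sqstm1 and Nbr1 were below 0 and Atg4c was above 0. The median difference was -0.04, and 0.04 without the block. Of the 38 differences, 12 were above 0 in that fit, 22 in the fit without it, and 33 after median centring, where the median over all genes tested was 0.10. Over all genes, 54.2% of differences were above 0 without the block. No common direction by diet can therefore be given for the set.

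Autophagy genes outside the set gave no call either. Of a list of 67 further names, which included synonyms, 60 were tested, 0 were called by limma and the median difference was 0.05. Over all genes tested 0.664% were called, so a count of 0 among 60 says little by itself. An unadjusted p below 0.05 was seen for 2 of the 60 (3.33%), against 9.3% of all genes tested. The smallest p values were in Bcl2, an inhibitor of cell death whose protein also restrains Becn1 (0.25 ± 0.08, adjusted p = 0.305), and its relative Bcl2l1 (0.26 ± 0.10, adjusted p = 0.437). Bcl2 read 10.67, 10.72, 10.73 and 10.62 under calorie restriction and 10.51, 10.34 and 10.46 ad libitum, without overlap. Groups that do not overlap, in either direction, were seen for 8.33% of this list and 10.2% of all genes tested. The adaptor Tollip (0.19 ± 0.09), the sorting nexin Snx18 (0.22 ± 0.11) and the endoplasmic reticulum receptor Ccpg1 (-0.33 ± 0.16) followed. The regulators Ulk1 (-0.14 ± 0.13), Gabarapl1 (-0.03 ± 0.16) and Tfeb (0.14 ± 0.10) had adjusted p values of 0.834, 0.969 and 0.786.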

How the data were processed

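Total RNA (10 ug per sample) from sorted Paneth cells was measured on 1 Affymetrix array each. The authors deposited log2 expression values per transcript cluster. The submitters' processing notes name Affymetrix Expression Console, without version or algorithm. The log2 scale was inferred from the range. Array medians were 7.24 to 7.29 in the first array set and 7.42 to 7.44 in the second, and values were used unscaled. The number of arrays limits the precision. Of 35556 clusters, 21789 had 1 symbol, 1621 several and 12146 none; 0 symbols changed on checking against RefSeq. Genes below the 40th percentile (6.79) were left out.

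The comparison used limma (version 3.58.1) in R (version 4.3.3; lmFit, eBayes with trend, no covariates), adjusted by Benjamini-Hochberg over 13409 genes. The code was run on simulated data with independent arrays. That run held no array sets, so it does not show how the fit behaves with them. Alternatives were quantile normalization, median centring, other filters, cluster means, no trend, an ordinary linear model, array weights, the replicate block, an enterocyte covariate, a block for the array set and the omission of each array in turn. The gene set, lists and tests were chosen with earlier results of these data known. Values per array are given for Atg16l1, Sqstm1, called genes, the 10 smallest p values and 2 genes per role. Figures used matplotlib (version 3.10.9).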

Additional observations from a re-analysis of the deposited data

Results flagged for a closer look

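Gaps within the calorie-restricted group passed Dixon's 95% critical value for 4 arrays in 3 of the 38 tested autophagy genes. All 3 flags were low values of replicate 4. Chance alone flags about 1 in 20 such groups. Atg3 stood at 10.19 in that array, against 10.69 in the next lowest. Gabarap stood at 12.83 against 13.02, and Gabarapl2, whose cluster is not told apart from a near-identical copy, at 11.87 against 12.22. The 3 flags are 7.89% of the set, and 6.02% of all genes tested passed the same value, 2.58% with replicate 4 low. In the ad libitum group, Atg3 read 10.80, 10.28 and 10.35, Gabarap 13.05, 12.88 and 12.86, and Gabarapl2 12.33, 11.98 and 12.01, so replicates 2 and 3 there were near the low calorie-restricted array.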

How the results depend on the processing

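The count of autophagy genes called higher was 1 with array weights and 0 in every other alternative run, and the count called lower was 0 in all 18. The ordinary linear model, the replicate block and the enterocyte covariate each called 0 of all genes tested. The count of 0 in the set is therefore uninformative in those fits. Apart from array weights and the array set as a block, every fit called few or 0 genes lower over all genes tested. A count of 0 lower in the set says little there. The array weights were lowest for ad libitum replicate 1 (0.292) and calorie-restricted replicate 4 (0.371). Of the 60 other autophagy genes tested, 4 were called with array weights (Bcl2, Snx18, Tollip and Zkscan3) and 2 with the array set as a block (Ccpg1 and Sec62). Those fits called 10.1% and 3.85% of all genes tested. Unadjusted p values below 0.05 were seen for 23 of the 60 with array weights and 11 with the array set as a block. Over all genes tested the shares were 30.2% and 21.2%. The median difference of the set, 0.04, was 0.13 after median centring, 0.12 with array weights, -0.053 with the enterocyte covariate and -0.040 with the array set as a block. Leaving out 1 array gave medians from -0.0056 to 0.11, the highest without calorie-restricted replicate 4. With the replicate block the median was 0.11. The labels do not say that the numbers pair the samples. Deviations from the group means, over all genes tested, correlated at -0.126, -0.265 and -0.550 between same-numbered arrays. These deviations also carry the array sets (-0.731 between calorie-restricted replicate 4 and ad libitum replicate 1), so they cannot decide whether samples were paired. The replicate block called 0 genes in all, so its lack of calls in the set decides nothing. Sqstm1 turned to 0.061 after median centring, 0.058 with array weights and 0.078 with the replicate block, and ran from -0.11 to 0.078 with single arrays left out. With the enterocyte covariate Atg16l1 was 0.011, Atg7 0.031, Atg9b 0.055, Epg5 0.018, Atg13 -0.23, Bnip3 -0.54 and Bnip3l -0.016, with standard errors of 0.25 or more. Becn1 was 0.016 after median centring. Atg13 was -0.0056 and Bnip3 -0.024 with the array set as a block. Of the 38 differences, 25 changed sign with the enterocyte covariate, 14 with the array set as a block and 11 after median centring. These changes of sign were in differences that did not pass in either fit. Median centring moves every difference up by the same amount, and the median over all genes tested went from 0.01 to 0.10. For the other fits the cause of the changes was not tested. Background correction could not be varied, since only processed values were used here.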

Other observations

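Values of 5 receptors for turnover of the endoplasmic reticulum, from the list of other autophagy genes, are given with and without the array set as a block. They were picked out after their values were seen, and no test compared them with each other. Ccpg1, a receptor induced by endoplasmic reticulum stress, read 11.48, 11.49, 11.54 and 10.97 under calorie restriction and 11.83, 11.78 and 11.47 ad libitum. Its difference was -0.33 ± 0.16 (limma, adjusted p = 0.607), and -0.48 ± 0.10 with the array set as a block (limma, adjusted p = 0.0378). Sec62, which acts in recovery from such stress, read 10.77, 10.92, 10.85 and 10.22 against 11.22, 10.75 and 10.56. Its difference was -0.15 ± 0.21 (limma, adjusted p = 0.882), and -0.40 ± 0.08 with the block (limma, adjusted p = 0.0273). Each ad libitum array lay above the calorie-restricted arrays of its own set for both genes. The related receptors did not pass in either fit. Retreg1 had 0.13 ± 0.22 without the block and -0.13 ± 0.09 with it. Tex264 had 0.11 ± 0.11 and 0.01 ± 0.07, and Rtn3 0.01 ± 0.06 and 0.01 ± 0.05. That block was chosen after seeing the data and called 3.85% of all genes and 2 of the 60 other autophagy genes, and the first set holds a single ad libitum array.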
